A study of Mus musculus with 4 samples.

Results

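Fam19a2, 9330175E14Rik, Ildr2 and 1190007F08Rik are 4 of the 28168 loci measured in sorted olfactory sensory neurons of the mouse line Nd1 and its controls. They were chosen by symbol, as genes outside the interferon lists whose level lay under 1 FPKM in control neurons and higher in Nd1 neurons. Rows of any test status were kept. FPKM is the number of sequenced fragments scaled by transcript length and by library size. The levels in the 2 groups therefore chose these genes and are given below as a description.

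Mature olfactory sensory neurons were sorted by fluorescence from dissociated olfactory epithelium, and polyadenylated RNA was sequenced. The 2 Nd1 libraries came from mice that were Nd1+/- and carried, at the Omp gene, OMP-IRES-tTA+/- together with OMP-IRES-GFP+/-, at 212 days (replicate 1) and 87 days (replicate 2). The 2 control libraries had the same ages. Control replicate 1 carried Nd1+/- and OMP-IRES-GFP+/- without the tTA allele, and control replicate 2 carried OMP-IRES-tTA+/- and OMP-IRES-GFP+/- without Nd1. All 4 libraries thus shared the GFP allele at Omp, the gene of the olfactory marker protein, and tTA, a transcriptional activator, was made from that same gene, which is active in mature neurons. The series title describes the transgenic mice as expressing double-stranded RNA encoded in the genome. The labels do not give the number of mice behind each library, nor what the Nd1 insertion carries.

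The authors' deposited table gives each locus 1 FPKM value for Nd1 and 1 for control, each pooled over 2 libraries, so there is no value per library, no SD and no read depth, and age, the tTA allele and the Nd1 insertion cannot be told apart within a value. A locus is called higher or lower at a q-value under 0.05 in the authors' deposited table, from their Cuffdiff comparison of Nd1 with control. Of 14841 tested loci 34.4% were called, 15.1% higher and 19.2% lower in Nd1. The lowest level at which a locus was tested was 0.308 FPKM in the higher of its 2 groups. Omp stood at 605 FPKM in Nd1 and 4087 FPKM in control, so both groups carried the defining marker of the labelled cell type, at unequal levels. Of 2 other mature neuron markers, Cnga2 had 486 FPKM in Nd1 and 860 in control, and Adcy3 had 496 and 888 FPKM. Both differed by a smaller ratio than Omp. In such bulk samples fewer cells of a type and less RNA per cell cannot be told apart, nor, for Omp, can the alleles at that gene.

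The 4 genes belong to different families. Fam19a2, which RefSeq now lists as Tafa2, encodes a small secreted protein of the FAM19A or TAFA family, whose members distantly resemble chemokines and are made mostly in the nervous system. FAM19A proteins bind neurexins, presynaptic adhesion proteins, on their way through the secretory pathway. Ildr2 encodes a membrane protein with an immunoglobulin-like domain. It is an angulin, a protein of the corners where 3 epithelial cells meet, and has also been described as a relative of the B7 regulators of T cells. 1190007F08Rik is listed by RefSeq as a synonym of Smim1, a small protein that crosses the membrane and carries the Vel blood group antigen on human red cells. 9330175E14Rik is listed as a long non-coding RNA, and no function is given for it here.

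Fam19a2 (mm9 chromosome 10, 122701132 to 123178035) had 6.64 FPKM in Nd1 and 0.0447 FPKM in control, a ratio of 149. Its level in Nd1 exceeded that of 46.8% of the tested loci, whereas in control only 0.748% of tested loci lay below it. It was called higher with a q listed as 0 in the authors' deposited table. In control Fam19a2 lay under the lowest tested level of 0.308 FPKM. It was thus tested only through Nd1, so that a difference was built into its being tested, and the ratio of 149 has no spread. Among 14704 tested loci above 0 in both groups its ratio took place 5, and on the log2(FPKM + 1) scale, which shrinks changes of low genes, its difference of 2.87 took place 51 of the 13727 loci that averaged 0.5 FPKM or more.

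9330175E14Rik (mm9 chromosome 8, 96957027 to 96959003) had 2.73 FPKM in Nd1 and 0.0210 FPKM in control, a ratio of 130. It was called higher with q = 7.96e-05 in the authors' deposited table. Like Fam19a2, 9330175E14Rik lay under 0.308 FPKM in control and was tested only through Nd1, so that a difference was built into its being tested. It was the least abundant of the 4 genes in either group, above 31.3% of tested loci in Nd1 and above 0.512% in control. The product of FPKM and the 1.977 kb interval was 0.0415 in control, beside a smallest non-zero product of 0.0329 in the control values of 972 short odorant receptor loci. The control value thus stood close to the lowest that the table lists for a locus of that kind, and the ratio of 130 has no spread. On the log2(FPKM + 1) scale the difference of 1.87 took place 179 of 13727.

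Ildr2 (mm9 chromosome 1, 168184270 to 168246963) had 8.89 FPKM in Nd1 and 0.670 FPKM in control, a ratio of 13.3. 1190007F08Rik (mm9 chromosome 4, 153385912 to 153400153, an interval shared with the gene Lrrc47) had 7.99 FPKM in Nd1 and 0.462 FPKM in control, a ratio of 17.3. These were the most abundant of the 4 genes in both groups, with Ildr2 above 53.8% of tested loci in Nd1 and 1190007F08Rik above 51.1%. For both, however, the authors' test failed, so that the authors' deposited table carries no call and sets their fold change to 0. The log2(FPKM + 1) differences were 2.57 for Ildr2 and 2.62 for 1190007F08Rik, which as sizes would take places 81 and 75 among the 13727 loci. No statement of a rise with a test can therefore be made for either. Of the 4 genes 2 thus carried a call, both higher, a count that the choice of genes shapes and that is not read against the 15.1% of all tested loci.

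**Figure D1:**
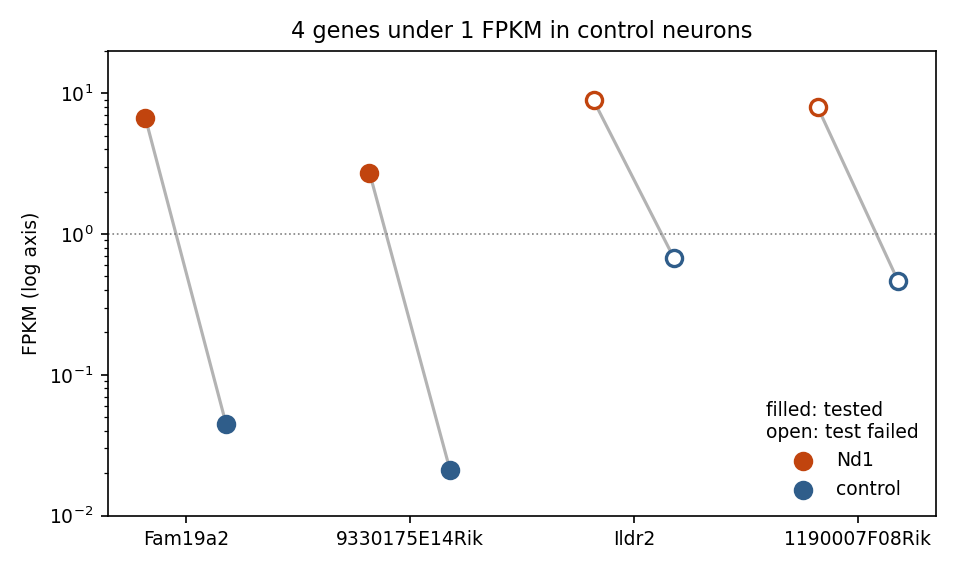
Levels of the 4 genes, as pooled FPKM on a log axis, with Nd1 left of control. All 4 lie between 2.73 and 8.89 FPKM in Nd1 and under 1 FPKM (dotted line) in control, and open symbols mark Ildr2 and 1190007F08Rik, whose test failed.

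A failed test is usually a locus with a modest difference in this table. Of 616 loci with a failed test, 605 were above 0 in both groups, and their median log2 ratio was -0.053, with quartiles at -0.21 and 0.12. In that set 1190007F08Rik had the ratio in place 2 and Ildr2 that in place 3. Only 5 failed loci had at least 1 FPKM in Nd1 and under 1 FPKM in control. The other 3 were the joined locus of 1600029I14Rik and Txndc6 with 5.04 FPKM in Nd1 and 0.497 in control, 2310068J16Rik with 1.85 and 0.669, and 1810062O18Rik with 1.10 and 0.935.

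The wider class is described by the same levels that chose the 4 genes, so the places given here are a description. Outside a list of 102 interferon-stimulated genes, 392 loci were called higher with at least 1 FPKM in Nd1 and under 1 FPKM in control, and are termed switched on here. Their medians were 1.93 FPKM in Nd1 and 0.477 FPKM in control, and the median ratio of the 387 above 0 in control was 4.44. With the interferon list included, 419 loci had such levels and a call, and 156 tested loci had such levels without a call. Fam19a2 had the ratio in place 2 of these 387 and 9330175E14Rik that in place 4, whereas the ratios of 1190007F08Rik and Ildr2, which are outside the class for want of a call, would take places 62 and 79. Just under the limit of 1 FPKM stood Sulf2 (3.01 FPKM in Nd1, 0.989 in control) and Hmgcll1 (1.63 and 0.986 FPKM). Just over it stood Ak7 (7.41 FPKM in Nd1, 1.00 in control) and Casc1 (1.75 and 1.01 FPKM).

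**Figure D2:**
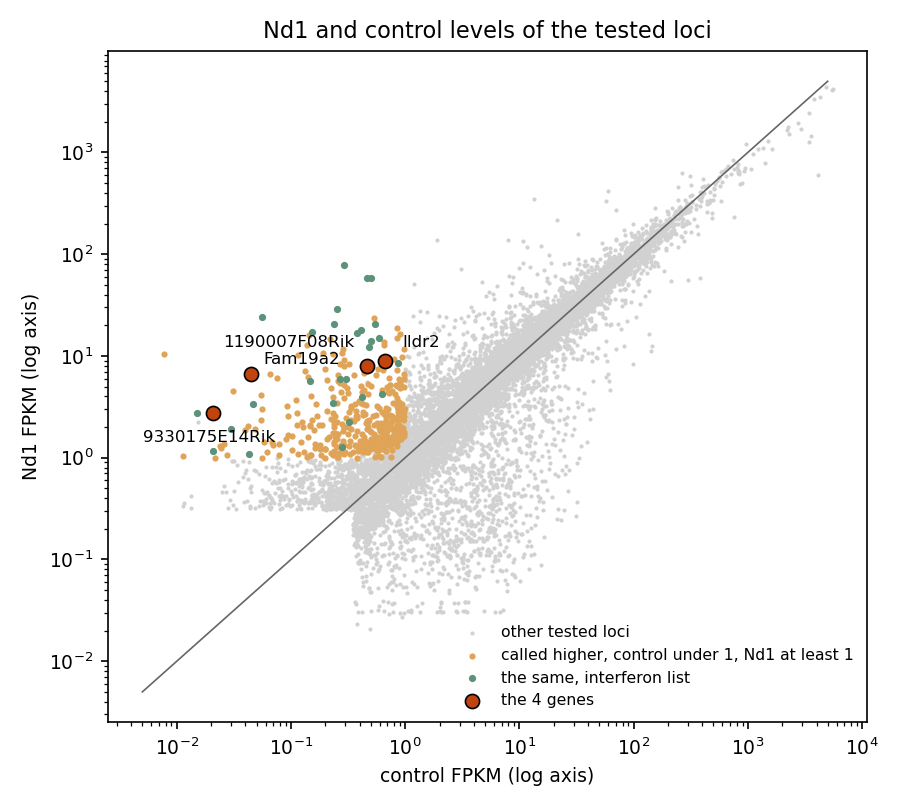
Nd1 FPKM against control FPKM on log axes for tested loci above 0 in both groups, with the 4 genes as large points and the line of equal levels. Fam19a2 at 6.64 FPKM and 9330175E14Rik at 2.73 FPKM in Nd1 lie at the left edge of the class, and Ildr2 and 1190007F08Rik lie closer to its limit of 1 FPKM in control.

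The promoter windows of the 4 genes are shown because the genes were taken as lying outside the interferon lists, so the letters of interferon-responsive elements are the ones a reader would look for. Each is the RefSeq window of 300 bases on GRCm38.p6, 250 before the start and 50 after it, written 5′ to 3′ on the gene's own strand, and capitals mark the CACGTG motif. The windows lie at chr10:123263826-123264125 on the plus strand for Fam19a2, chr8:94435054-94435353 on the minus strand for 9330175E14Rik, chr1:166253889-166254188 on the plus strand for Ildr2 and chr4:154025995-154026294 on the minus strand for 1190007F08Rik.
Fam19a2: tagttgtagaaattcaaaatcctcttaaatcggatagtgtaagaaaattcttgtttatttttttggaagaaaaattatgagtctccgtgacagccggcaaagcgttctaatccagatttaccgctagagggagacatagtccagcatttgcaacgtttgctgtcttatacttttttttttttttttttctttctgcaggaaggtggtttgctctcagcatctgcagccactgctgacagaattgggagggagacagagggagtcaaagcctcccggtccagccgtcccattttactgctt
9330175E14Rik: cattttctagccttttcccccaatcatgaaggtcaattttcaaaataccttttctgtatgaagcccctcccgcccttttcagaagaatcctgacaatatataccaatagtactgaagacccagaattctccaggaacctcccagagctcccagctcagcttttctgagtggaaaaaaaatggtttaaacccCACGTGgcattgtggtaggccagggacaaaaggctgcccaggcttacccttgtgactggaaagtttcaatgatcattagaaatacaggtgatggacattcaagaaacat
Ildr2: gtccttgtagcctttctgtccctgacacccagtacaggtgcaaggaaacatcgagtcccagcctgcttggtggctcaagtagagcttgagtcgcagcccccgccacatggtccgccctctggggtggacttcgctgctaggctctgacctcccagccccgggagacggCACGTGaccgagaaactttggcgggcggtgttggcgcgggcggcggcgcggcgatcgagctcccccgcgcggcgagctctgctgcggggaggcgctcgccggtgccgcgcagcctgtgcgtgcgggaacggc
1190007F08Rik: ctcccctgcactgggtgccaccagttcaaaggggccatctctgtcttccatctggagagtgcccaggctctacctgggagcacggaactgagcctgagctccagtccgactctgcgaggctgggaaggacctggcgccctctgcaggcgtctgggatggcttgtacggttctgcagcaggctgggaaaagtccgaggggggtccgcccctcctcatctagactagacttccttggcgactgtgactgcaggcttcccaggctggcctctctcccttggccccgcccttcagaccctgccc

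The windows were searched on both strands for 6 motifs. The core of the interferon-stimulated response element, GAAANNGAA, occurs in 8.56% of the 32851 RefSeq windows and the STAT element TTCNNNGAA in 8.30%, and neither was found in the 4 shown. The core CCCNNGGG of the site of EBF factors (13.7% of windows), the homeodomain site TAATTA (5.29%) and the TATA box TATAAA (13.6%) were not found either. The E-box CACGTG, present in 7.15% of windows, was found in those of 9330175E14Rik, 59 bases before the start, and Ildr2, 82 bases before it. The interferon and EBF motifs were shortened to these cores after longer forms of both had been searched and not found in the 4 windows. These matches are letters only, and an absent match says nothing of sites elsewhere.

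The windows also differed in composition. That of Ildr2 had 69.0% G and C and 32 CpG dinucleotides, more than 90.5% of windows, and that of 1190007F08Rik had 64.0% G and C and 10 CpG. Those of 9330175E14Rik (43.7%, 2 CpG) and Fam19a2 (41.7%, 8 CpG) lay under the median of 52.7% G and C. The median CpG count was 7, so Fam19a2 lay above it, near the 10 of 1190007F08Rik. The pair with the higher control levels thus had the windows richer in G and C, a description of 4 genes.

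The neighbours of each gene were not used in choosing it. Within 500 kb of the 4 genes lay 58 other loci, of which 39 were tested and 13 were called, 8 higher and 5 lower. That is 33.3%, near the 34.4% of all tested loci, and the median log2 ratio of the 39 was -0.047. The neighbourhoods differed in how many loci they hold, and only that of 9330175E14Rik held a tested neighbour with a change of similar size.

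9330175E14Rik lies between a gene that fell and a gene that rose. On its right, across 37.7 kb of mm9, Nlrc5, which encodes a transcriptional activator of MHC class I genes and is a member of the interferon list, had 3.37 FPKM in Nd1 and 0.0468 FPKM in control and was called higher. Next on that side, 97.9 kb away, the copine gene Cpne2, which encodes a calcium-dependent membrane-binding protein, had 0.987 FPKM in Nd1 and 0.190 in control and was also called higher. Like Nlrc5, it lay above the lowest tested level of 0.308 FPKM in Nd1 and under it in control, so that a difference was built into its being tested. On the left, across 37.8 kb, the endoplasmic reticulum stress gene Herpud1 had 39.3 FPKM in Nd1 and 126 in control and was called lower.

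Farther out the changes were smaller. The metallothionein genes Mt1 (261 FPKM in Nd1, 435 in control) and Mt2 (154 and 197 FPKM) fell. The nuclear pore gene Nup93 (14.4 FPKM in Nd1, 11.1 in control), the G protein gene Gnao1 (167 and 141 FPKM), the chemokine gene Cx3cl1 (22.5 and 14.6 FPKM) and the adaptor gene Dok4 (32.9 and 23.3 FPKM) rose. Of the 24 tested loci around 9330175E14Rik, 9 were called, 6 higher and 3 lower.

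The annotation puts 9330175E14Rik and Nlrc5 closer than the table does. In GENCODE M21 on GRCm38 they lie on opposite strands, and 3 of 9 Nlrc5 transcripts start inside 9330175E14Rik. RefSeq on GRCm38 puts 9330175E14Rik at 94433127 to 94435103 of chromosome 8, a span as long as its measured interval of 1.977 kb. It starts Nlrc5 at 94434335, inside that span. The 5938 exonic bases of 9330175E14Rik, over its 2 GENCODE transcripts, exceed its measured interval of 1.977 kb. The exons of both genes share 78 of them, and whether these lie in that interval was not examined. Where the counting does not use strand, reads from those bases cannot be told apart, and the sources used here do not state whether it did. How much of the 2.73 FPKM of 9330175E14Rik in Nd1 comes from there was not tested. The switched-on class outside the interferon list was defined by levels and includes 9330175E14Rik, so its share near interferon genes is a description. In it, 15 of 392 loci (3.83%) lay within 100 kb of a called interferon-list gene, beside 280 of 14760 tested loci outside the list (1.90%). For the other 3 genes the nearest such gene was far off, with Isg15 at 2173 kb from 1190007F08Rik, Stat2 at 4530 kb from Fam19a2 and Tor3a at 9580 kb from Ildr2.

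Around Fam19a2, a locus of 477 kb, all 4 loci within 500 kb lie on its left. The nearest, the deubiquitinase gene Usp15, had 25.4 FPKM in Nd1 and 25.2 FPKM in control. Mon2, a gene of membrane traffic at the Golgi, was called lower, with 12.4 FPKM in Nd1 and 14.2 in control. The nearest named locus on the right, 4930503E24Rik, stood 728 kb away with 4.79 FPKM in Nd1 and 5.24 in control. Ppm1h had 4.97 FPKM in Nd1 and 5.39 in control and did not pass, and neither did the short microRNA locus Mirlet7i, with 0.767 FPKM in Nd1 and 3.12 in control. The ratios of Nd1 to control at the 4 loci within 500 kb lay between 0.246 and 1.01, beside the 149 of Fam19a2.

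1190007F08Rik shares its interval in the table with Lrrc47, a gene of leucine-rich repeats, for which the test failed too. Lrrc47 had 14.7 FPKM in Nd1 and 14.6 FPKM in control, so the 2 transcripts of 1 interval had unlike ratios. In GENCODE M21 both genes lie on opposite strands and share 1044 of the 5761 exonic bases of Smim1, which without strand cannot be assigned to either. The nearest named neighbours were BC046331, with 35.0 FPKM in Nd1 and 35.5 in control, and Ccdc27. The latter had 0.260 FPKM in Nd1 and 0.0358 in control, a ratio of 7.26 between low values, and was not tested. Of 8 tested neighbours 3 were called. Tprgl, a gene of presynaptic terminals, rose (151 FPKM in Nd1, 96.2 in control). The p53 relative Trp73 was called higher (0.532 and 0.227 FPKM) and the transcription factor gene Prdm16 lower (0.256 and 0.432 FPKM), but Trp73 reached the tested level of 0.308 FPKM only in Nd1 and Prdm16 only in control, so a difference was built into their being tested.

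Around Ildr2 none of the 3 tested loci was called by Cuffdiff in the authors' deposited table, and 0 of 3 had an unadjusted p under 0.05. Mael, 15.4 kb to its left, was listed at 0 in Nd1 and 0.0564 FPKM in control. Pogk and Tada1, whose joint interval lies 62.3 kb to its right, had 29.2 and 8.41 FPKM in Nd1 and 30.8 and 10.5 FPKM in control, and their tests failed as that of Ildr2 did.

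**Figure D3:**
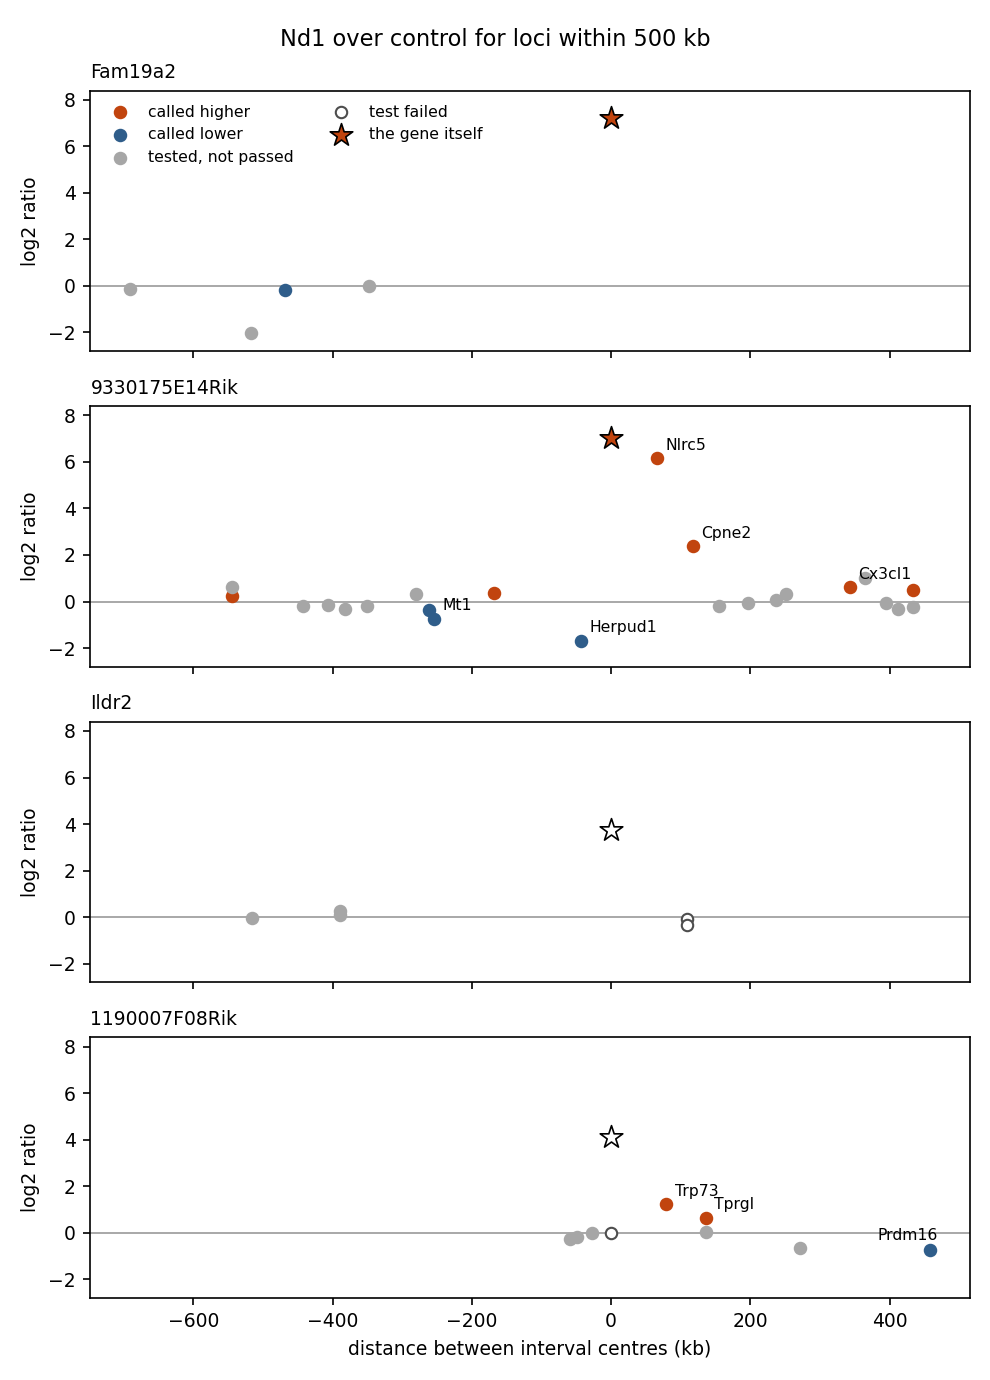
Log2 ratio of Nd1 over control for tested and failed loci above 0 in both groups within 500 kb of each gene, against the distance between interval centres in kb, with the gene itself as a star. Nlrc5 at 6.17 stands beside 9330175E14Rik at 7.02, while no neighbour shown for the other 3 genes exceeds Trp73 at 1.23. Loci that were not tested, such as Ccdc27 at 2.86 beside 1190007F08Rik, are left out.

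Among the relatives of Fam19a2 the change was uneven. All 5 FAM19A genes are in the table, 3 were tested, and 2 of these were called higher, beside 15.1% of all tested loci. Nothing is read from that count, since Fam19a2 was chosen for its levels. The other called gene, Fam19a1, had 0.337 FPKM in Nd1 and 0.0439 FPKM in control (q = 0.0019 in the authors' deposited table). Since the tested loci begin at 0.308 FPKM, Fam19a1 was tested only through its level in Nd1, so that a difference was built into its being tested. Fam19a4, which in mice is made by touch-sensing C fibres, had 4.08 FPKM in Nd1 and 3.70 FPKM in control and did not pass. Fam19a5 (0.108 FPKM in Nd1, 0.141 in control) and Fam19a3 (listed at 0 in Nd1, 0.00785 FPKM in control) were not tested. In Nd1 neurons Fam19a2 was thus the most abundant of the family, and in control neurons Fam19a4 was.

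The neurexins and the receptors reported for FAM19A proteins that are counted here, 6 genes, have 7 loci in the table, of which 2 were tested and both were called higher. Nrxn2 had 14.5 FPKM in Nd1 and 7.99 FPKM in control. Nrxn3 rose at 1 of its 2 loci, with 0.366 FPKM in Nd1 and 0.0391 in control, again a locus tested only through Nd1. The receptor genes Gpr1, S1pr2, Fpr1 and Fpr2 all lay under 0.3 FPKM in both groups and were not tested. With 2 tested loci this count is a description beside the 15.1% called higher over all loci.

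Among the angulins, Ildr2 alone lay under 1 FPKM in control. Ildr1 had 13.2 FPKM in Nd1 and 12.2 FPKM in control, and its test failed as well. Lsr, the lipolysis-stimulated lipoprotein receptor, is listed as 2 loci, of which the more abundant rose (27.7 FPKM in Nd1, 20.1 in control) and the other did not pass (11.3 and 9.29 FPKM). At 8.89 FPKM in Nd1, Ildr2 thus came under the level of its relatives, having been far under it in control.

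**Figure D4:**
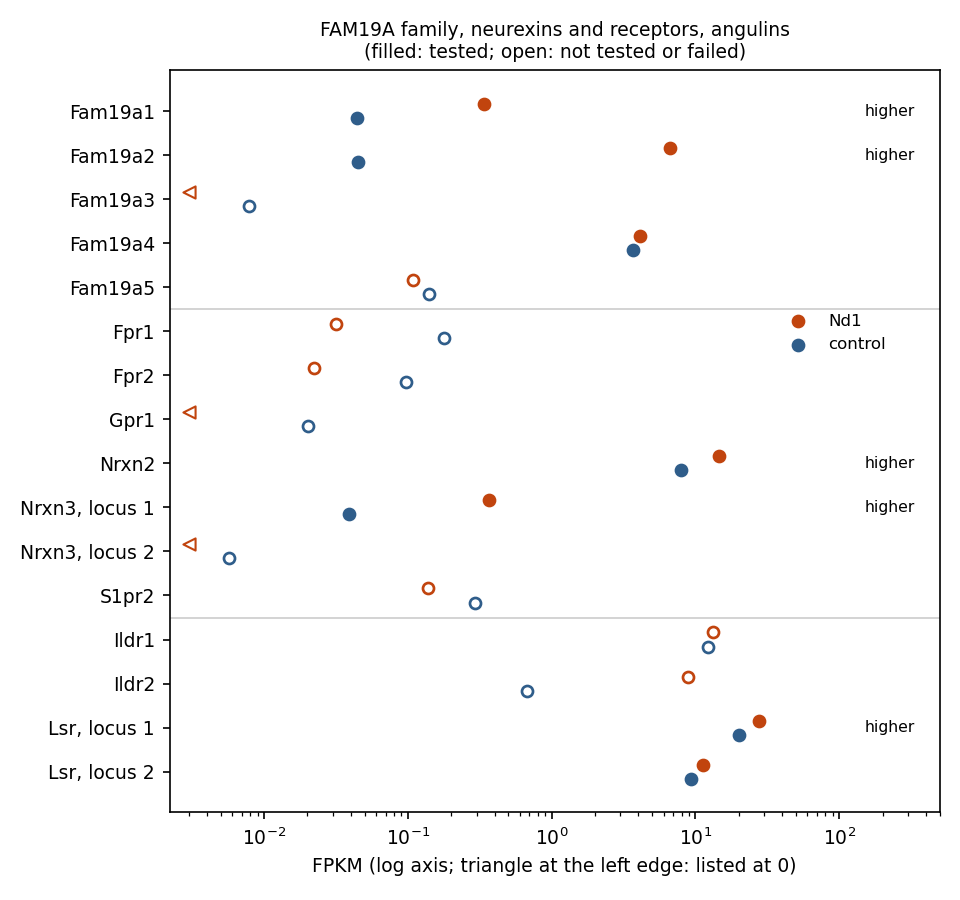
FPKM on a log axis of FAM19A genes (top), 2 neurexins and 4 receptors (middle) and angulins (bottom), with Nd1 above control in each row and the authors' calls at the right. Fam19a2 at 6.64 FPKM and Ildr2 at 8.89 FPKM in Nd1 are the widest-spaced pairs that reach 1 FPKM in Nd1, and a triangle marks a value listed at 0.

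The tight junction genes, with which angulins work at cell corners, moved both ways. Of 21 genes 16 were tested, 4 rose and 3 fell, beside 15.1% higher and 19.2% lower over all tested loci. Marveld2, which encodes tricellulin, the partner that angulins recruit, rose (16.4 FPKM in Nd1, 9.81 in control), as did the scaffold gene Tjp3 (1.93 and 0.769 FPKM), Cldn8 (3.42 and 1.44 FPKM) and Cldn9 (136 and 110 FPKM). Tjp1, which encodes the scaffold ZO-1, fell (16.4 FPKM in Nd1, 21.2 in control), as did Cldn10 (0.541 and 1.51 FPKM) and Cldn11 (0.114 and 0.389 FPKM, tested only through control). The list median on the log2(FPKM + 1) scale was 0.085, beside -0.058 over all tested loci.

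Of the B7 and butyrophilin genes, to which Ildr2 has been likened, 3 of 11 were tested and all 3 were called, 2 higher and 1 lower, a description of 3 loci beside the 15.1% higher and 19.2% lower over all tested loci. Cd274, the checkpoint ligand PD-L1 and also a member of the interferon list, rose (40.8 FPKM in Nd1, 13.9 in control), and so did Cd276 (4.97 and 2.92 FPKM). 4632428N05Rik, which RefSeq lists as a synonym of Vsir, fell (0.422 FPKM in Nd1, 0.773 in control). The other 8 genes were not tested.

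Genes with the most similar pair of levels were found by the distance over the 2 group values on the log2(FPKM + 1) scale, among tested named loci outside the interferon list. Closest to Fam19a2 were Sash3, an adaptor gene of lymphocytes (7.18 FPKM in Nd1, 0.133 in control, distance 0.15), and 9130401M01Rik (6.18 and 0.142 FPKM, distance 0.16). Closest to 9330175E14Rik were the potassium channel gene Kcnk10 (2.58 FPKM in Nd1, listed at 0 in control, distance 0.065), which did not pass, and the G protein regulator Rgs4 (2.59 and 0.0943 FPKM, distance 0.12). For Ildr2 these were Pvrl3, which encodes the adhesion protein nectin-3 (9.15 and 0.712 FPKM, distance 0.051), and the potassium channel gene Kcnn3 (9.29 and 0.804 FPKM, distance 0.12). For 1190007F08Rik they were Gfra1, a receptor for the growth factor GDNF (7.17 and 0.462 FPKM, distance 0.14), and Gm10845 (7.51 and 0.582 FPKM, distance 0.14). A likeness over 2 values is weak, and for Ildr2 and 1190007F08Rik the similar genes carry calls that they do not.

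Marker lists of the labelled and of other cells give the setting for these 4 genes, and their counts stand beside 15.1% higher and 19.2% lower over all tested loci. Mature neuron markers fell in 12 of 16 tested loci and rose in none, and their summed level was 10024 FPKM in Nd1 and 21462 FPKM in control. Immature neuron markers rose in 15 of 20 tested loci and fell in 3, with sums of 1237 FPKM in Nd1 and 780 FPKM in control. The T and NK cell list summed to 11.1 FPKM in Nd1 and 1.61 FPKM in control. Gzma (5.65 and 0.257 FPKM) and Cd69 (4.51 and 0.0309 FPKM) made up most of the Nd1 sum but not of the control sum. Both were tested only through Nd1. Cd3g, Gzmb, Klrd1 and Prf1 were listed at 0 in both groups, and Cd3e, Cd3d, Cd4, Cd2, Cd8a and Ncr1 lay under 0.06 FPKM in both. Nkg7 (0.158 FPKM in Nd1, 0.380 in control) and Zap70 (0.211 and 0.372 FPKM) did not pass, and Lck (0.208 and 0.110 FPKM) and Cd8b1 (0.257 and 0.284 FPKM) were not tested. Red blood cell markers, which bear on 1190007F08Rik as the Vel antigen gene, summed to 12.6 FPKM in Nd1 and 23.7 FPKM in control over the 3 genes found of 5, and Hbb-b1 fell (11.9 and 22.7 FPKM). Macrophage markers summed to 2.12 FPKM in Nd1 and 3.18 FPKM in control over 14 genes, of which 3 were tested. Ptprc was called lower (0.0475 FPKM in Nd1, 0.490 in control), tested only through control, whereas Tyrobp (0.225 and 0.900 FPKM) and Aif1 (0.465 and 0.238 FPKM) did not pass. Of those not tested, C1qa (0.245 and 0.141 FPKM), C1qc (0.149 and 0.0862 FPKM) and Emr1 (0.104 and 0.0704 FPKM) stood higher in Nd1 and the other 8 lower. In the other 8 marker lists at most 1 locus a list was called higher. Gland and respiratory epithelium markers fell in 9 of 13 tested loci (sums of 199 FPKM in Nd1 and 344 in control), neutrophil markers in 8 of 9 (7.24 and 34.5 FPKM), sustentacular cell markers in 6 of 16 (372 and 428 FPKM) and microvillar and brush cell markers in 5 of 7 (39.7 and 70.6 FPKM). Basal and progenitor cell markers fell in 4 of 5 (8.13 and 14.6 FPKM), endothelial and mural cell markers in 3 of 6 (15.6 and 21.2 FPKM), B and plasma cell markers in 1 of 1 (0.779 and 1.65 FPKM) and ensheathing glia markers in 0 of 5 by Cuffdiff in the authors' deposited table, with 0 at an unadjusted p under 0.05 (7.12 and 7.36 FPKM). The part of these cells in the levels of the 4 genes was not tested.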

How the data were processed

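Polyadenylated RNA of sorted neurons was prepared with Illumina TruSeq reagents, per the labels' protocols. Bowtie, Cuffdiff 1.3.0 and the build mm9 are named in the submitters' processing notes, and for annotation, filters and use of strand the sources used here give nothing. For each group the authors deposited FPKM pooled over 2 libraries, with their log2 fold change, p-value, q-value and a test statistic, a score that was not used. Without values per library no test, SD, interval or detection floor was computed, and calls are the authors' at q under 0.05. Ratios, ranks, neighbour counts and list counts were computed with pandas 2.3.3 in Python 3.11.15. Ratios, ranks and neighbour counts, but not list counts, were tested on simulated data. Table intervals are mm9 with 1 added to each start. RefSeq and GENCODE M21 annotation is on GRCm38 and served for names, strands, exon overlap and promoters, which were found for all 4 genes.

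The genes and the 19 gene lists were chosen with earlier results of these data known. Named besides the 4 genes were the nearest named locus on each side, called named loci within 500 kb, FAM19A and angulin genes, called members of the related lists, the 2 closest profiles, the loci next to the 1 FPKM limit and the marker genes that complete a list. Alternatives varied the q-value, the limits of the class, the window, the pseudocount and the scaling. Lists were counted by locus, so a symbol with several loci counts once for each. In addition, 2 genes were left out of these lists and are not reported here.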

Additional observations from a re-analysis of the deposited data

How the results depend on the processing

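No paired analysis was possible because the table holds 1 pooled value per group, and for the same reason no replicate could be left out. The 2246 loci called higher became 1421 at q under 0.001 and 1052 with a change of at least 2-fold. The 419 switched-on loci became 227 with control under 0.5 FPKM, 209 with Nd1 at least 2 FPKM and 145 at 8-fold or more, and the 392 outside the interferon list became 206, 186 and 121, the last including 5 listed at 0 in control. Adding loci whose test failed, an alternative chosen after seeing the data, gave 424 and 397. The 13 called neighbours became 7 of 17 tested within 250 kb and 23 of 64 within 1000 kb, as the window's own construction gives. Of 50 alternatives 20 moved a value by over 1.5 times. That 0 turned a direction is not read, since counts and ranks cannot turn and the 4 genes were chosen for their difference. On the log2(FPKM + 1) scale, median-centring, upper quartile scaling and quantile normalization kept Fam19a2 between 2.90 and 2.93, 9330175E14Rik between 1.90 and 1.95, Ildr2 between 2.60 and 2.66 and 1190007F08Rik between 2.65 and 2.69, while without a pseudocount they stood at 7.22, 7.02, 3.73 and 4.11.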
